A study of Mus musculus with 30 samples.

Results

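Deferribacteres is a small bacterial phylum of the mouse gut, and its gut representative, the genus Mucispirillum, is a spiral-shaped anaerobe that lives in the mucus covering the intestinal wall. Mucispirillum schaedleri is a common member of the flora of laboratory mice, and it was long kept as one of the strains of a defined flora given to germ-free mice. Because it lives in the mucus, its share in feces need not equal its share at the intestinal wall. The members described here were chosen by their taxonomy, phylum Deferribacteres, and by having at least 1 count in the 30 mice of the series. Of the 12980 sequences with counts in these mice, 16 met this rule, and they held 6347 of 2611709 counts, or 0.243%. No Deferribacteres sequence of the filtered table was without counts in these mice. The members nearest the limit were the 5 with the lowest total, 2 counts, and on the other side of the authors' filter lay ASV_83358 and ASV_36137, with 1 count each in the unfiltered table only.

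The 16S rRNA gene, which is used to name bacteria, was sequenced from fresh feces of female C57BL/6 mice (C57BL/6J by the methods), with 6 mice in each of 5 groups. The mice were 6 weeks old when obtained, and feces were taken when the treatment ended. The control group received a normal diet and saline by gavage, and the model group a high-fructose diet and saline. The remaining 3 groups received the same high-fructose diet with 1 phenylethanoid each, at doses matched by moles. Salidroside was given at 50 mg/kg. The dose was 23 mg/kg for tyrosol, and for hydroxytyrosol it was 26 mg/kg. Salidroside is the glucoside of tyrosol, and hydroxytyrosol carries an additional phenolic hydroxyl group. Feeding lasted 8 weeks by the methods, a period given otherwise in other places of the study. Mice are numbered within a group as in the sample titles. No cage is given in the sources used here, and mice of a cage exchange gut bacteria by eating feces, so the spread of a sequence over cages was not tested.

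The deposited tables list amplicon sequence variants (ASVs), which are distinct 16S sequences, here after a denoising step by the deposited read log, while the methods describe operational taxonomic units instead. Bacterial genomes often hold several copies of the 16S gene, so an ASV is a sequence and not necessarily a strain. All 16 ASVs belonged to 1 family, Deferribacteraceae, and to 1 genus, Mucispirillum. Of them, 15 were named Mucispirillum schaedleri, and ASV_55179, with 3 counts in control mouse 3, carried no species name. Phylum and genus values are therefore the same numbers below. The tables give ASVs by identifier without their bases, so no sequence is shown.

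Deferribacteres ranked 6 of 28 named phyla by its mean share over the 30 mice, 0.240%, after Verrucomicrobia. It was found in 27 of 30 mice, and in 24 of them with more than 3 counts, the number that a count of 0 allows. The counts were concentrated in few animals. The 9 mice with over 100 counts held 94.7% of all Deferribacteres counts, and the 4 highest mice held 72.0%. Total counts per mouse ran from 41862 to 106609. A list of 14 mostly aerobic genera, Acinetobacter among them, filled on average 65.9% of these totals in model mice and 24.3% in control mice. With these genera left out of the total, all 10 differences between group means kept their direction and their side of the unadjusted threshold, while the sizes changed. The difference between model and control mice was then 0.954 percentage points (exact permutation test, p = 0.0758), and that between salidroside and control mice 0.224 (exact permutation test, p = 0.0325). All shares are percentages of the totals, so more Mucispirillum, more 16S copies per cell and fewer other bacteria cannot be told apart. The intervals of single mice are 95% Wilson intervals, and, as PCR reads without molecular identifiers are not independent molecules, these and the limits for 0 counts take in counting error alone.

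In the control group, Mucispirillum was at the edge of detection. The 6 control mice held 0, 2, 10, 2, 0 and 36 counts, from mouse 1 to mouse 6, with a median share of 0.00377% and a highest share of 0.0430% (0.0311 to 0.0596) in mouse 6. Only mice 3 and 6 were above 3 counts. The 0 counts of control mice 1 and 5 allow a share of up to 0.0041% and 0.00405%. At the depths of all control libraries, this limit would run from 0.00358% in the deepest to 0.00717% in the shallowest.

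In the model group, every mouse had a count, but the level split widely. The shares ran from 0.00296% in mouse 3 to 1.80% (1.71 to 1.89) in mouse 1, with a median of 0.0219%. Mouse 1 held 1578 counts and mouse 6 held 923, while the other 4 mice held between 3 and 32, within the range of the control mice. The group mean of 0.462% ± 0.749 (SD, n = 6) therefore rested on mice 1 and 6, and mouse 1 alone supplied 61.9% of the group's Deferribacteres counts.

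The salidroside group had the smallest SD of the 4 groups on the high-fructose diet, 0.0787. Its shares ran from 0.00871% in mouse 3 to 0.218% (0.187 to 0.255) in mouse 1 with a median of 0.0760%, and 5 of the 6 mice, with 44 to 163 counts, lay above the highest control mouse. In the tyrosol group, the shares ran from 0.0131% in mouse 3 to 1.08% (1.01 to 1.15) in mouse 6, with a median of 0.0907%. Tyrosol mice 1 and 6 held 661 and 953 counts, mouse 2 held 168, and the other 3 held 14 to 23. In the hydroxytyrosol group, mouse 1 had 0 counts, which allows up to 3 of 101386, and mouse 5 held the highest share, 1.31% (1.24 to 1.39), with a group median of 0.0239%. Mice 4 and 5 of this group held 312 and 1113 counts, and the remaining 3 held 4 to 25.

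**Figure D1:**
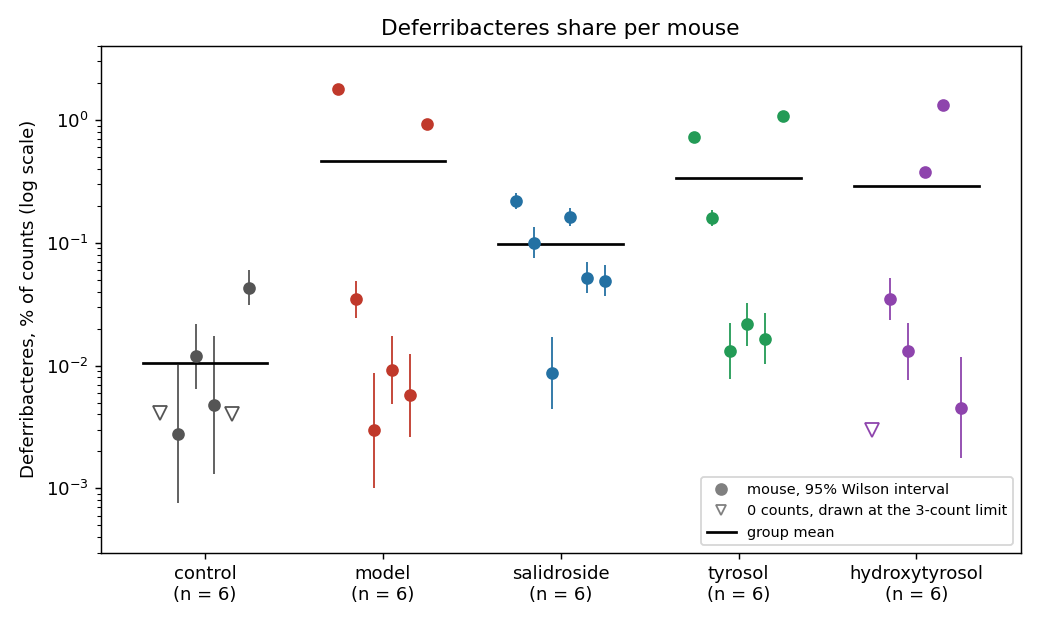
Share of Deferribacteres in the counts of each mouse, in percent on a log scale, for the 5 groups of 6 mice. Points are mice with 95% Wilson intervals, open triangles are mice with 0 counts drawn at the limit of 3 counts, and black lines are group means. The model, tyrosol and hydroxytyrosol groups each spread over about the whole scale, from near or below 0.0131% to above 1%, while the control mice stayed at or below 0.0430%.

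The effect of the high-fructose diet was examined by setting the model group against the control group. The mean share was 0.0104% ± 0.0166 (SD, n = 6) in control mice, and the difference of 0.451 percentage points had a 95% interval from -0.0109 to 0.919 (two-sided exact permutation test, p = 0.177, adjusted p = 0.449 over 10 pairs of groups). A model mouse lay above a control mouse in 28 of 36 pairs, and the groups overlapped. Without model mouse 1 the difference was 0.184, and with any 1 of the 12 mice left out no exact p was under 0.05. In edgeR's quasi-likelihood test on counts per genus, the log2 fold change of Mucispirillum was 4.38 (SE 1.84, adjusted p = 0.0773), not past the threshold, where 17.5% of the 97 genera tested were called. This value depended on the settings, since the adjusted p was 0.0357 without TMM scaling, 0.0254 with all 30 mice in one edgeR model and 0.00176 by DESeq2, but 0.102 by limma on centred log-ratios (log2 fold change 3.64) and 0.282 with the replicate number as a block in edgeR (3.41). With 1 mouse left out, the edgeR adjusted p was under 0.05 in 5 of 12 fits (without model mouse 2, 3, 4 or 5, or control mouse 6) and ran from 0.0118 to 0.139.

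Whether the phenylethanoids moved Mucispirillum away from the model level was then compared. The mean share was 0.0982% ± 0.0787 (SD, n = 6) in the salidroside group, 0.337% ± 0.458 in the tyrosol group and 0.290% ± 0.522 in the hydroxytyrosol group, each below the model mean. The difference from the model group was -0.364 percentage points for salidroside (95% interval -0.888 to 0.138, exact permutation test, p = 0.450, adjusted p = 0.750). For tyrosol it was -0.125 (-0.892 to 0.604, exact permutation test, p = 0.797, adjusted p = 0.877), and for hydroxytyrosol -0.172 (-0.904 to 0.652, exact permutation test, p = 0.652, adjusted p = 0.814). None of the 3 differences was past the threshold, and the intervals are wide. Without model mouse 1, the salidroside difference was -0.0962, and tyrosol and hydroxytyrosol mice had the higher mean, by 0.143 and 0.0956 percentage points. The salidroside and tyrosol differences also turned positive on the log10 scale, at 0.129 and 0.274, and in mean ranks, at 1.33 each. The medians of all 3 treated groups were above the model median, and salidroside and tyrosol mice were each higher in 22 of 36 pairs with model mice, hydroxytyrosol mice in 17 of 36. In edgeR, salidroside stood at a log2 fold change of -2.40 against the model group, with SE 1.45 and an adjusted p of 0.432. Tyrosol stood at -0.11 (SE 1.45, edgeR adjusted p = 0.949), and hydroxytyrosol at -0.83 with SE 1.7 and an edgeR adjusted p of 0.800. The first 2 directions were not stable, since salidroside turned to 0.40 with limma on centred log-ratios and 0.71 with the replicate block, and tyrosol to 0.46 and 0.91, and to 0.49 with all 30 mice in one model. Over all genera tested, 4.12%, 1.94% and 4.95% were called in these comparisons.

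Set against the control group, all 3 treated groups had the higher mean share. These 3 comparisons and that of the model group share the same 6 control mice. Salidroside mice were higher by 0.0878 percentage points (95% interval 0.0197 to 0.161, exact permutation test, p = 0.00649, adjusted p = 0.0649), and were higher in 34 of 36 pairs. The unadjusted p stayed under 0.05 with any 1 of the 12 mice left out, at most 0.0130, and the adjusted p missed the threshold. It was also above 0.05 by Fisher's exact test on mice with more than 3 counts (p = 0.0606). With the replicate number as a block, the exact permutation p was 0.0625. Tyrosol mice were higher by 0.327 (0.000233 to 0.732, exact permutation test, p = 0.0498, adjusted p = 0.249) and in 33 of 36 pairs. That unadjusted p was above 0.05 in 8 of the 12 fits with 1 mouse left out (tyrosol mouse 1, 2 or 6, or any control mouse but 6), at most 0.0996. Without tyrosol mouse 6 the difference was 0.178. Hydroxytyrosol mice were higher by 0.280 (-0.0119 to 0.673, exact permutation test, p = 0.180, adjusted p = 0.449) and in 25 of 36 pairs, and without hydroxytyrosol mouse 5 by 0.0746. Mice with more than 3 counts numbered 2 of 6 in the control group, 5 of 6 in the model group, 6 of 6 in the salidroside and tyrosol groups and 5 of 6 in the hydroxytyrosol group.

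The edgeR fit called Mucispirillum in 1 of the 3 treated groups against control. For tyrosol the log2 fold change was 4.41 (SE 1.68, adjusted p = 0.0386), in a comparison in which 44.1% of 102 genera were called, and without tyrosol mouse 6 it was 3.44 with an adjusted p of 0.105. For salidroside it was 2.34 (SE 1.41, adjusted p = 0.230), where 26% of genera were called. Without control mouse 6 it was 4.69, with an adjusted p of 0.0181. For hydroxytyrosol it was 3.71 (SE 1.92, adjusted p = 0.163), where 29.2% were called. Without hydroxytyrosol mouse 1 or 2 or control mouse 6, it was 5.30, 5.27 and 6.52, and the edgeR adjusted p was 0.0328, 0.0389 and 0.0232. DESeq2 called all 3, with an adjusted p of 0.00107 for tyrosol, 0.0322 for salidroside and 0.0125 for hydroxytyrosol. Salidroside was also called by limma on centred log-ratios (adjusted p = 0.0268) and by edgeR with singleton pairing in TMM (0.0499), and hydroxytyrosol by edgeR without a filter (0.0209). Across all 5 groups, the Kruskal-Wallis statistic of the share was 7.68 (permutation p = 0.0951).

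The 3 related compounds were also compared with one another. Salidroside and its aglycone tyrosol differed by -0.239 percentage points (95% interval -0.683 to 0.113, exact permutation test, p = 0.372, adjusted p = 0.745). Without tyrosol mouse 6 this difference was -0.0904, and without tyrosol mouse 1 it was -0.16. Hydroxytyrosol and tyrosol, which differ by 1 hydroxyl group, differed by -0.0473 (-0.640 to 0.588, exact permutation test, p = 0.877, adjusted p = 0.877), and the sign turned in 6 of the 12 comparisons with 1 mouse left out (hydroxytyrosol mouse 1, 2, 3 or 6, or tyrosol mouse 1 or 6), by up to 0.101. Salidroside and hydroxytyrosol differed by -0.192 (-0.644 to 0.138, exact permutation test, p = 0.565, adjusted p = 0.807). Salidroside mice were nevertheless higher in 22 of 36 of these pairs, and the difference was 0.305 on the log10 scale, 1.33 in mean ranks and 0.0131 without hydroxytyrosol mouse 5. No pair of compounds was past the threshold, and the intervals reach differences larger than the group means themselves, so like action of the compounds was not shown either.

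**Figure D2:**
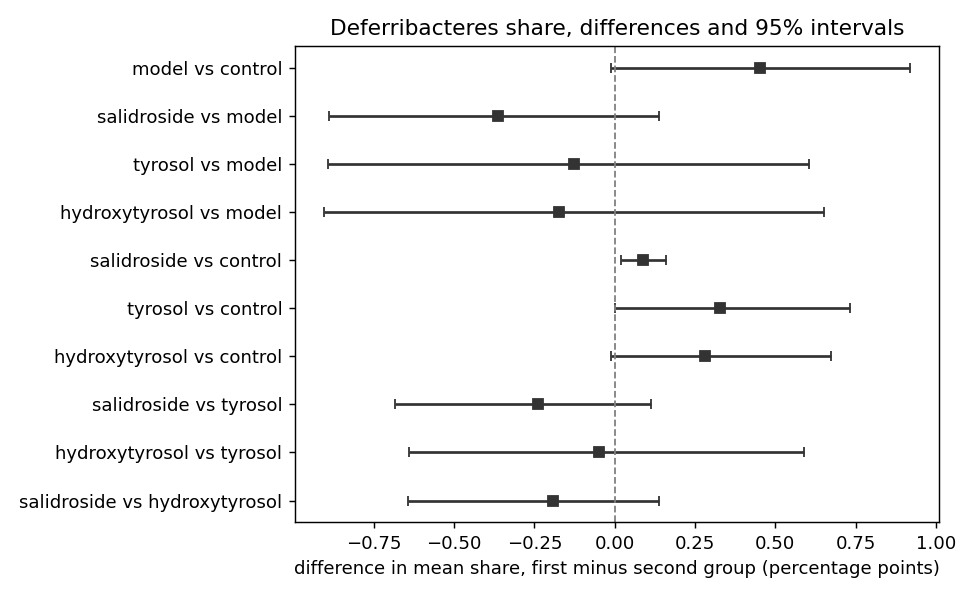
Difference in the mean Deferribacteres share for the 10 pairs of groups, first minus second group, in percentage points, with 95% intervals from inverting the exact permutation test. The intervals of salidroside vs control, 0.0197 to 0.161, and tyrosol vs control, 0.000233 to 0.732, lie above 0, before adjustment over the 10 pairs, and the other 8 hold 0.

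The groups also differed in which ASVs made up these shares. The ASVs of each mouse were looked at with earlier results of the data known, so they are given as a description without a test. ASV_77440 held 54.6% of all Deferribacteres counts, ASV_21297 28.4%, ASV_35060 10.2%, ASV_12607 4.84% and ASV_56544 1.39%, together 99.4%. The other 11 ASVs each occurred in 1 mouse, with 2 to 11 counts, and 8 of them had 3 counts or fewer. In all, 12 of 16 Deferribacteres ASVs (75.0%) were found in 1 mouse only, next to 71.1% of all ASVs in the table.

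ASV_56544 was the leading sequence of the control group. It was the most abundant Deferribacteres ASV in all 4 control mice with a count, with 2, 7, 2 and 36 counts in mice 2, 3, 4 and 6, and only control mouse 3 held a further one. It was also the only Deferribacteres ASV of model mice 2, 3 and 5, with 32, 3 and 6 counts. In the 18 treated mice it had 0 counts, which allows a share of between 0.00281% and 0.00682% per mouse. Of the 7 mice that carried ASV_56544, 4 had more than 3 counts.

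ASV_77440 and ASV_21297 made up nearly all the Deferribacteres of the treated mice. ASV_77440 was found in 15 of 18 treated mice, with 2454 counts, and ASV_21297 in 14 of 18, with 1237 counts. Both had 0 counts in every control mouse, and in the model group they occurred in mouse 1 only, with 1009 and 565 counts. In the salidroside group, mice 1 to 6 held 101, 27, 0, 92, 29 and 30 counts of ASV_77440. In the tyrosol group, all 6 mice held it, with 443, 107, 10, 17, 9 and 612 counts. In the hydroxytyrosol group, mice 2 to 5 held 13, 13, 205 and 746 counts and mice 1 and 6 held 0. ASV_56544 was found in 7 mice and at least 1 of ASV_77440 and ASV_21297 in 17, and 0 mice carried ASV_56544 together with either of the pair. The remaining 6 mice carried neither, 3 of them with 0 Deferribacteres counts. How often other ASVs of similar prevalence are missing from all control mice, or never meet in a mouse, was not counted. ASV_56544 had only 88 counts in all, so its absence beside the pair rests on little data.

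ASV_35060 had nearly all its counts, 629 of 649, in the model group. Model mouse 6 held 616 counts of it, together with all 307 counts of ASV_12607, and these 2 ASVs were its whole Deferribacteres population. In model mouse 4, ASV_35060 was the only Deferribacteres ASV, with 9 counts. It occurred at 4 to 6 counts beside both ASVs of the pair in model mouse 1, salidroside mice 1 and 2 and hydroxytyrosol mouse 4, and not in the tyrosol group. In salidroside mouse 3 it had 4 counts, beside 4 of ASV_21297 and 0 of ASV_77440. The 923 counts of model mouse 6 and the 1578 of model mouse 1, which carried the model mean, thus came from different ASVs. In hydroxytyrosol mouse 6, ASV_90167, with 4 counts, was the only Deferribacteres ASV.

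**Figure D3:**
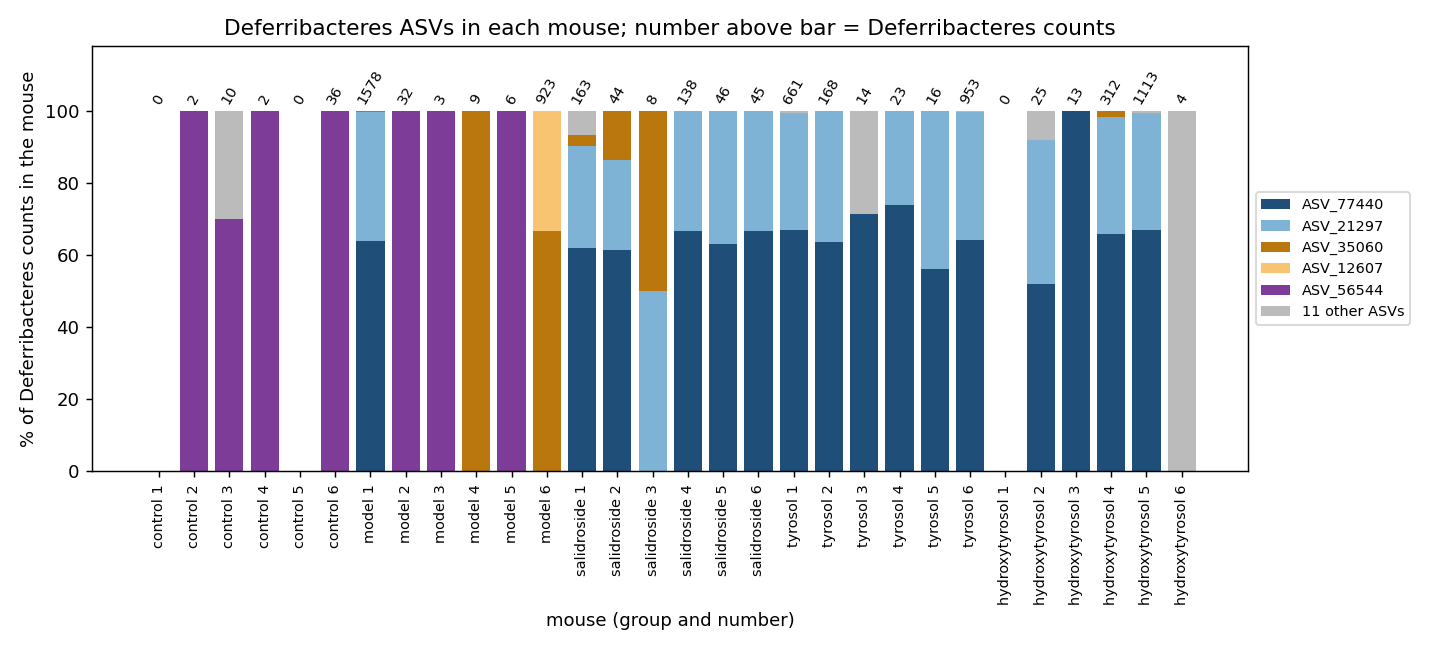
Make-up of the Deferribacteres counts of each of the 30 mice by ASV, in percent of the mouse's Deferribacteres counts, with that number of counts above the bar. ASV_56544 filled most or all of the bar in 4 control and 3 model mice, and ASV_77440 with ASV_21297 dominated the treated groups. Bars over few counts, such as 2 in control mice 2 and 4, rest on little data.

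ASV_77440 was the more abundant of the pair in each mouse that held both ASV_77440 and ASV_21297, and the ratio was similar in the mice with high counts. Over all mice ASV_77440 made up 65.8% of the 2, a ratio of 1.92 to 1. Both were present in 14 mice, in which the ratio ran from 1.29 to 2.83, with the extremes at low counts. Where the counts were highest, the share of ASV_77440 in the pair was 64.1% (61.7 to 66.4) in model mouse 1, 67.5% (64.7 to 70.2) in hydroxytyrosol mouse 5, 64.4% (61.3 to 67.3) in tyrosol mouse 6 and 67.4% (63.8 to 70.9) in tyrosol mouse 1. The pooled value is made up largely of these same mice, and at low counts the intervals are wide, such as 33.2 to 76.9 in tyrosol mouse 5. In 3 mice only 1 of the pair was counted, since tyrosol mouse 3 and hydroxytyrosol mouse 3 had 10 and 13 counts of ASV_77440 and 0 of ASV_21297, and salidroside mouse 3 had 4 counts of ASV_21297 and 0 of ASV_77440. In model mouse 6, ASV_35060 and ASV_12607 stood in a like ratio of 2.01 to 1, and ASV_35060 was 66.7% (63.6 to 69.7) of the 2.

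**Figure D4:**
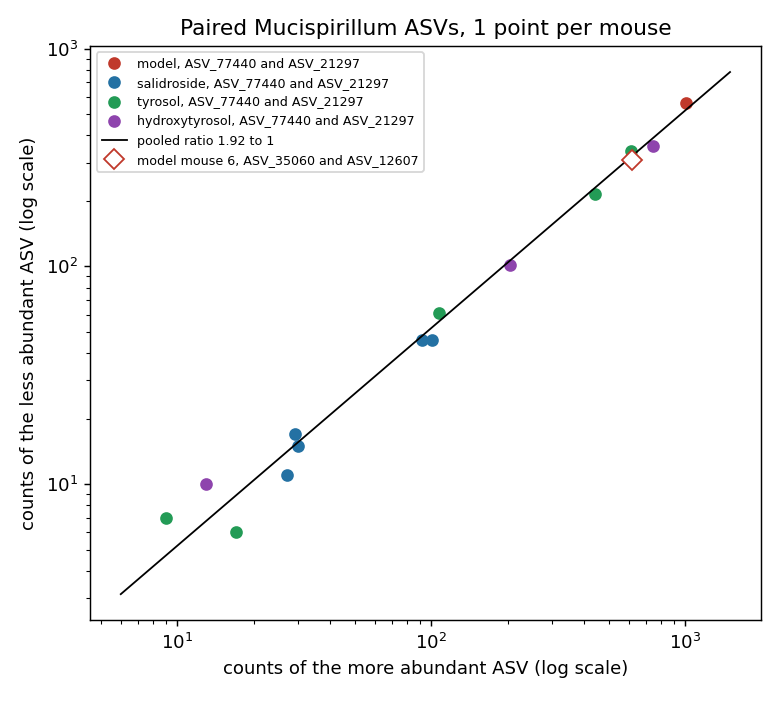
Counts of the more abundant against the less abundant ASV of a pair, both on log scales, 1 point per mouse. The 14 mice with both ASV_77440 and ASV_21297 lie along the line of the pooled ratio of 1.92 to 1 over 2 orders of magnitude, and the open diamond, ASV_35060 and ASV_12607 in model mouse 6, lies beside it at 2.01 to 1.

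The number of Deferribacteres ASVs per mouse was compared at equal total depth, in the authors' table rarefied to 39768 counts. It averaged 0.833 ± 0.753 (SD, n = 6) in control, 1.5 ± 0.837 in model, 2.50 ± 0.837 in salidroside, 2.50 ± 0.837 in tyrosol and 2.17 ± 1.83 in hydroxytyrosol mice. Salidroside and tyrosol mice each held 1.67 more than control mice (exact permutation test, p = 0.0108, adjusted p = 0.0541 for each). Depth was not equal within the phylum. Deferribacteres held 0 to 16 rarefied counts in control, 5 to 84 in salidroside and 7 to 428 in tyrosol mice. A mouse with 0 such counts has 0 ASVs by definition, so this difference cannot be separated from the difference in share. The other 8 pairs of groups had unadjusted exact p-values of 0.130 or higher, but with only ASVs of at least 2 counts, salidroside and tyrosol against model had 0.0325 and 0.0455, also unadjusted. The highest number was 5, in hydroxytyrosol mouse 5.

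Mucispirillum shares the mucus with other bacteria, so a list of 18 genera and unnamed genus-level groups known from the mucus or as users of mucin was followed in the same edgeR fits. Between model and control mice, 15 of the 18 were tested, 2 were called higher and 5 lower in model mice, next to 7 higher and 10 lower of 97 over the whole table. The median difference in mean share was -0.245 percentage points over these 15 and -0.00776 over all 97. Such differences grow with the abundance of a taxon, and the list holds abundant ones, such as unidentified S24-7 at 17.2% in control mice. Here and in the comparisons below, the medians therefore do not show that listed taxa changed more in proportion than others. Akkermansia, a mucin degrader, had 0 counts in all 6 control mice and held 1.07% ± 2.12 (SD, n = 6) in model mice (edgeR, adjusted p = 0.000484), where 1 mouse supplied 4698 of the group's 5745 counts. [Ruminococcus], a genus with some mucin-degrading species, held 0.0478% ± 0.0630 in control and 2.53% ± 5.55 in model mice (edgeR, adjusted p = 0.0298), where 1 mouse supplied 13897 of 15174 counts. The 5 called lower were unclassified Helicobacteraceae (0.662% to 0%), Prevotella (0.433% to 0.00358%), [Prevotella] (0.248% to 0.00309%), Odoribacter (0.887% to 0.00553%) and unidentified S24-7 (17.2% to 0.252%), given as mean shares of control and model mice. Mucispirillum itself was not called there. Against the model group, 0 of 11 listed taxa tested were called for salidroside, 0 of 10 for tyrosol, and 1 of 12 for hydroxytyrosol, beside 4.12%, 1.94% and 4.95% of all genera tested, shares too near these counts to set the list apart. The 1 called was Odoribacter, which rose from 0.00553% to 0.411% ± 0.546 (edgeR, log2 fold change 6.01, SE 1.42, adjusted p = 0.0242). The median difference in mean share was 0.0611, 0.00487 and 0.00751 percentage points over the listed taxa in these 3 comparisons, and -0.00325, -0.0135 and -0.00318 over all genera tested.

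Against the control group, 1 listed taxon was called higher and 4 lower of 15 tested for salidroside, 2 higher and 7 lower of 14 for tyrosol, and 2 higher and 3 lower of 15 for hydroxytyrosol. Over all genera tested, the same counts were 11 higher and 14 lower, 22 and 23, and 15 and 13. Akkermansia was called higher in all 3 treated groups, and [Ruminococcus] in the tyrosol (1.08%) and hydroxytyrosol (2.45%) groups. Prevotella and unidentified S24-7 were called lower in all 3, with unidentified S24-7 at 0.574%, 0.814% and 0.843% in the salidroside, tyrosol and hydroxytyrosol groups. [Prevotella] and unclassified Rikenellaceae were also called lower for salidroside and tyrosol, unclassified Helicobacteraceae for tyrosol and hydroxytyrosol, and Odoribacter and Lactobacillus for tyrosol. The median difference in mean share over the listed taxa was -0.236, -0.355 and -0.380 percentage points, and -0.00443, 0.00136 and -0.00107 over all genera. The limit of abundance given above holds for these medians too. Mucispirillum, higher in mean share in each treated group, was past the edgeR threshold for tyrosol only.

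Over the 30 mice, the share of Deferribacteres was set beside that of the 151 other genera with more than 3 counts in at least 6 mice. The 5 with the most similar pattern by Spearman's rho were an unnamed genus of Desulfovibrionaceae (0.70), Macrococcus (0.66), Akkermansia (0.60), Jeotgalicoccus (0.59) and [Ruminococcus] (0.49). All shares of a mouse come from 1 library and have 1 total, and the 5 genera all had their lowest mean share in the control group. Within the 18 treated mice, rho was 0.41, 0.60, 0.32, 0.30 and 0.30 in the same order, and genera outside these 5, such as Blautia at 0.58, were above all but Macrococcus there, so the order over 30 mice did not hold within the treated mice. Akkermansia held 0.969% ± 1.17 in salidroside, 1.2% ± 1.49 in tyrosol and 1.42% ± 1.26 in hydroxytyrosol mice. Akkermansia had 0 counts in control mice, whereas Mucispirillum had 50 there, nearly all of ASV_56544.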

How the data were processed

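Fecal 16S rRNA gene amplicons of 30 mice, 6 per group, were analysed, with groups from the sample labels. Per the deposited read log, the authors filtered, denoised and merged reads and removed chimeric sequences and singletons. The methods describe merging, filtering, chimera removal and grouping of similar sequences into operational taxonomic units, whereas the deposited tables list ASVs, and which process named the rows was not settled. The submitters' notes also name cutadapt. The taxonomy version is not given in the sources used here. The deposited values are raw counts per ASV, and totals of the filtered table equal the logged non-singleton reads in 30 of 30 mice. The third table was rarefied by the authors.

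Shares were computed from the filtered table and compared for 10 pairs of groups by the difference in mean share, with exact permutation of the mice (doubled one-sided p, smallest value 0.0022, threshold 0.05), with Benjamini-Hochberg adjustment and intervals of a shift from the inverted test. Counts per genus (at least 10 counts in at least 4 mice) were tested with edgeR 4.0.16 after TMM in 7 comparisons, adjusted over all genera. The SE printed with an edgeR log2 fold change is the size of that change divided by the square root of the test's F statistic. It is an approximation and not an estimate made by edgeR. Every Deferribacteres ASV is accounted for, and those most abundant in a mouse or among the 5 largest are described in full. The other taxa named are a list of mucus taxa and the 5 genera most alike. The members and lists were chosen with earlier results of these data known. Alternatives were other tables, totals, scales, filters, DESeq2 1.42.0, limma 3.58.1 and leaving out each mouse. The procedures were tested on simulated data. For the intervals these were normal values of equal spread, unlike the skewed and uneven groups here. For edgeR they were large changes between model and control mice only. No 2 mice of a group had identical counts over all ASVs of the table.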

Additional observations from a re-analysis of the deposited data

Results flagged for a closer look

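Within the 5 groups of 6 mice, 2 mice stood apart from the others of their group in the share of Deferribacteres by Dixon's criterion. It flags about 1 group in 20 by chance where values are normally distributed. These shares are skewed, with a mean of 0.290% and a median of 0.0239% in the hydroxytyrosol group, so that rate need not hold here. Control mouse 6 held 0.0430%, and its gap to the next mouse was 0.723 of the group's range. Hydroxytyrosol mouse 5 held 1.31%, with a gap of 0.716 of the range. Both are the highest mice of their groups. All 36 counts of control mouse 6 were of ASV_56544, the leading sequence of its group. Of the 1113 counts of hydroxytyrosol mouse 5, 746 were of ASV_77440 and 359 of ASV_21297, both found in further mice of that group. The cause of either value was not tested.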

How the results depend on the processing

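Mean shares rested on few mice, and counts of 0 or 2 in control mice 1, 2, 4 and 5 limit every contrast with the control group. The unfiltered and rarefied tables and other totals kept each direction. Of the group comparisons by share, 68 of 80 settings other than leaving out a mouse kept direction and side of the threshold.

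In share, the negative differences from the mean turned positive on the log10 scale (0.129 for salidroside and 0.274 for tyrosol against model, 0.305 for salidroside against hydroxytyrosol), in mean ranks (1.33 in each of the 3) and in the number of mice over 3 counts (1 more mouse in each). Salidroside and tyrosol against control, with 4 more mice over 3 counts each, gave p = 0.0606 by Fisher's exact test. Same-numbered mice are not a pair by the labels, and only 9 of 42 such pairs correlated above 0.1 (range -0.44 to 0.44). With the replicate number as a block, the difference of 0.0878 between salidroside and control is the same by construction, and its exact permutation p was 0.0625, where 0.0312 is the smallest possible.

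For Mucispirillum counts against control, edgeR and its alternatives passed the threshold for model mice without TMM (log2 fold change 5.44), with DESeq2 (5.36) and with all 30 mice (5.12), for salidroside with singleton pairing (3.71, adjusted p = 0.0499), DESeq2 (3.18, 0.0322) and limma on centred log-ratios (3.95, 0.0268), and for hydroxytyrosol with DESeq2 (4.95, 0.0125) and without a filter (4.61, 0.0209). Against the model group, salidroside turned to 0.40 with centred log-ratios and 0.71 with the replicate block, and tyrosol to 0.46 with centred log-ratios, 0.49 with all 30 mice and 0.91 with the replicate block. None of these reversed values passed the threshold. The causes were not tested.

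Leaving out each mouse gave share differences from 0.184 to 0.543 (model) and 0.0637 to 0.106 (salidroside), 0.178 to 0.392 (tyrosol) and 0.0746 to 0.338 (hydroxytyrosol) against control. Against model they were -0.455 to -0.0962 (salidroside), -0.273 to 0.143 (tyrosol) and -0.377 to 0.0956 (hydroxytyrosol). Between compounds they were -0.304 to -0.0904 (salidroside against tyrosol), -0.252 to 0.101 (hydroxytyrosol against tyrosol) and -0.250 to 0.0131 (salidroside against hydroxytyrosol, above 0 without hydroxytyrosol mouse 5). Log2 fold changes in edgeR were 4.11 to 6.66 (model), 1.92 to 4.69 (salidroside), 3.44 to 5.99 (tyrosol) and 3.37 to 6.52 (hydroxytyrosol) against control, and -2.72 to -0.89 (salidroside), -1.25 to 1.01 (tyrosol, above 0 without tyrosol mouse 3 or 5 or model mouse 1) and -2.23 to -0.18 (hydroxytyrosol) against model.

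Counts of genera called moved by over 1.5 times in some settings. For model against control, 17 became 38 with DESeq2, 28 with centred log-ratios, 32 with all 30 mice and 11 with the replicate block. Against model, 4 calls for salidroside became 1 to 11, 2 for tyrosol 1 to 12 and 5 for hydroxytyrosol 3 to 19, and 28 for hydroxytyrosol against control became 52 without a filter. With ASVs of at least 2 counts, salidroside and tyrosol mice held 1.33 and 1 more Deferribacteres ASVs than model mice (exact permutation test, unadjusted p = 0.0325 and 0.0455).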

Other observations

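The share of Deferribacteres depends on what else fills the total. A list of 14 mostly aerobic genera, including Acinetobacter, made up on average 24.3% of the counts in control, 65.9% in model, 38.1% in salidroside, 48.9% in tyrosol and 22.4% in hydroxytyrosol mice. Among the counts that remain without these genera, Deferribacteres held 0.0200% ± 0.0393 (SD, n = 6) in control, 0.974% ± 1.64 in model, 0.244% ± 0.303 in salidroside, 0.434% ± 0.468 in tyrosol and 0.354% ± 0.551 in hydroxytyrosol mice. The order of the 5 group means was the same as in the whole total. The highest single value was then 4.07%, in the model group.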
